A study of Mus musculus with 68 samples.

Results

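The comparison described here sets motor neurons induced to express the LIM homeodomain factor Lhx3 against motor neurons induced to express the zinc finger factor Zic1, paired by batch. It rests on 4 of the 68 arrays of the series, chosen by their titles: 1 Lhx3 and 1 Zic1 array of cells sorted for the CD2 reporter in batch 5, and 1 of each in batch 6. The series screened factors for their ability to turn motor neurons derived from mouse embryonic stem cells (strain C57/BL6) into phrenic motor neurons, which drive the diaphragm. All 4 cultures shared their history. Embryoid bodies received retinoic acid and Smoothened agonist on day 2 and were dissociated on day 5, motor neurons were enriched magnetically through a motor neuron-specific CD2 surface transgene, and doxycycline was then given during 30 h on matrigel, so that the lines differed by label only in the gene that was induced. A second pair of groups, used further on, carried a CD14 reporter in place of CD2 and received doxycycline to express Pou3f1 alone (2 arrays, batch 6) or Pou3f1 together with Lhx3 (2 arrays, batch 7). The labels do not say which promoter drives each reporter, how many clones a line has, or whether its 2 arrays came from separate cultures. P-values therefore cover only array-to-array spread, which may be technical and was estimated over all 68 arrays, most of them of other lines. Neither batch 5 nor batch 6 held an array of CD2 cells with the control transgene YFP. A difference between the lines can therefore come from either of them, and the remaining 41 CD2 arrays of the series (other induced lines, YFP and parental H4 cells) are given as a range that shows where each line lay.

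Lhx3 pairs with Isl1 through the adaptor Ldb1 in young motor neurons, and the resulting hexamer switches on motor neuron genes such as Mnx1. Without Isl1, Lhx3 and Ldb1 act in V2 interneurons. Postmitotic spinal motor neurons keep Lhx3 only in the median motor column, which serves the axial muscles, and other columns, the phrenic one included, switch it off. Zic1 is a C2H2 zinc finger factor of the dorsal neural tube and of cerebellar progenitors, related to the Gli effectors of Hedgehog signalling, and is not a motor neuron factor.

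The promoters of the 4 genes with the largest rises that have an entry in RefSeq's promoter table (build GRCm38.p6) are shown because these genes set the lines furthest apart. Each is the 250 bases before the start site on the gene's strand, 5′ to 3′, and capitals mark matches on either strand to TAAT, the core that homeodomains bind, alone or within TAATTA, the palindrome favoured by LIM homeodomain proteins.
Slitrk6 (chr14:110755150-110755399, minus strand): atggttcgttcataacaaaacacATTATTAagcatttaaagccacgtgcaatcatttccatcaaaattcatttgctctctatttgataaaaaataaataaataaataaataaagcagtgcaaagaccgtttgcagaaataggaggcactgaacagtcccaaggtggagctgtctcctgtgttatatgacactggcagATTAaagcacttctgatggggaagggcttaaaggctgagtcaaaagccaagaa
Tac1 (chr6:7554811-7555060, plus strand): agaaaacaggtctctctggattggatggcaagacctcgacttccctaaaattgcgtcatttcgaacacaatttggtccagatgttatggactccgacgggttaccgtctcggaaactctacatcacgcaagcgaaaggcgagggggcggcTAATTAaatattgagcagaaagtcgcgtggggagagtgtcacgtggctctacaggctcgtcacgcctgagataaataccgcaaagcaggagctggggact
Hcrtr2 (chr9:76323624-76323873, minus strand): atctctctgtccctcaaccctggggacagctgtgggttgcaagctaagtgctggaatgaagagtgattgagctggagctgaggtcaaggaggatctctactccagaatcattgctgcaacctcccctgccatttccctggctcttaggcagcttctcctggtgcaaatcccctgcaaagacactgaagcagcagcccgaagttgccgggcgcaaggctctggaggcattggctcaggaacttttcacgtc
Egflam (chr15:7398396-7398645, minus strand): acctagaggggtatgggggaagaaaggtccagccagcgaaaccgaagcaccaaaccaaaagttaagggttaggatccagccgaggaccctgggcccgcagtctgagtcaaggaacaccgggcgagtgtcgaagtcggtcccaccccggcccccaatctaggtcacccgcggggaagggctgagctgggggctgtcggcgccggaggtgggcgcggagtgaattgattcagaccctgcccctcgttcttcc
The Tac1 promoter holds 1 TAATTA and the Slitrk6 promoter 3 matches to TAAT, with no match to either in the other windows shown. The first listed promoter of each gene was used, here and in the windows shown, and Egflam has 2 listed. Over all 27025 genes of the table, cut to the same 250 bases, 4.90% hold TAATTA and 55.3% TAAT. Among the 15614 genes tested with a promoter the shares were 4.12% and 47.9%. TAATTA was in 15 of 235 promoters (6.38%) of genes higher in Lhx3 cells and in 5 of 202 (2.48%) of genes lower, and TAAT in 39.6% and 40.6%. CAGCAGG, searched on both strands as a core of Zic binding sites, was in 8.38% of tested promoters, 10.2% of those higher and 11.4% of those lower. It does not overlap the other motifs, whereas every TAATTA also counts as a TAAT. The median share of G and C in these windows was 62.0% for genes higher, 59.6% for genes lower and 56.4% for genes tested. TAAT and TAATTA hold neither letter. The motif shares describe letters in a window and were not tested, nor was the part of base composition in them.

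The induced genes were read first. Lhx3 stood at 11.38 and 11.03 in the Lhx3 arrays and at 7.93 and 7.87 in the Zic1 arrays (deposited log2 values, batch 5 first, as in every pair of levels below). Its difference was 3.30 ± 0.28 on the log2 scale, or 9.85-fold (standard error of the limma fit, n = 2 against 2, adjusted p = 1.26e-10). Both Lhx3 arrays lay above the 7.45 to 10.42 of the other CD2 arrays. Zic1 read 7.29 and 7.00 in the Zic1 arrays against 6.67 and 6.44 in the Lhx3 arrays, a difference of -0.59 ± 0.14 (1.51-fold, adjusted p = 0.00733). The other CD2 arrays read Zic1 at 5.91 to 6.55, so both Zic1 arrays topped that range by a small margin, as did the batch 5 Lhx3 array at 6.67. This call was lost in the batch 5 pair alone (adjusted p = 0.0732) and in the batch 6 pair alone (0.337). The labels do not say which stretch of the Zic1 transcript was induced, so probes may lie outside it and the small rise is no measure of Zic1 protein.

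Across the 19938 genes tested, 300 were higher in Lhx3 cells (1.5%) and 285 lower (1.43%) by limma with Benjamini-Hochberg adjustment at adjusted p under 0.05, against 3057 at unadjusted p under 0.05. Counts in the gene lists below are to be read against these shares, at which a short list can hold no call. The difference exceeded 1 on the log2 scale, a doubling, for 116 of the higher and 63 of the lower genes. All 585 called genes had the same sign in both batches, as did 58.2% of all genes, and the calls rest on these same values. The batches did not weigh equally. Differences had an SD over all genes of 0.40 in batch 5 and 0.28 in batch 6, and 427 of the 585 called genes differed more in batch 5. The differences of the 2 batches correlated at r = 0.348 over genes, which do not count as independent replicates. Fitted from the batch 6 pair alone (without the batch 5 Lhx3 array or the batch 5 Zic1 array, which gives the same result), 144 genes passed, 126 of them among the 585. From the batch 5 pair alone (without the batch 6 array of either line) 698 passed, 373 of them among the 585. Without batch terms the fit called 272. With other arrays setting the spread the count ran from 35 (the 4 arrays alone, paired) and 41 (the 4 alone, unpaired) to 1021 (batches 5 and 6 only), and the paired fit of the 4 arrays ended 36 of the 54 calls among named genes.

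**Figure D1:**
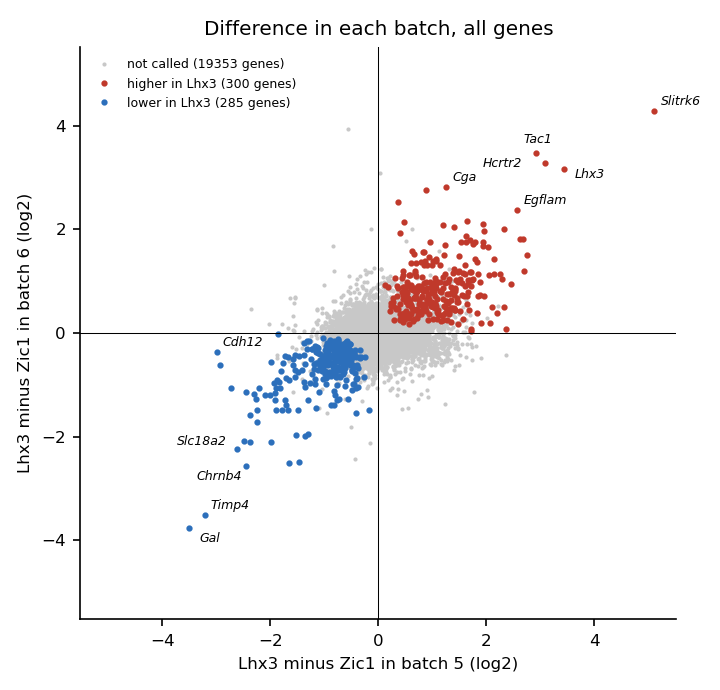
Each point is 1 of the 19938 genes, with the Lhx3 minus Zic1 difference (log2) in batch 5 on the horizontal axis and in batch 6 on the vertical axis. Red points are the 300 genes called higher and blue points the 285 called lower; every coloured point lies in the quadrant where both batches share a sign, with Slitrk6 and Gal at the far ends.

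Slitrk6, a synaptic membrane protein with leucine-rich repeats, had the largest rise of all genes called. Its level was 10.91 and 10.07 in the Lhx3 arrays and 5.80 and 5.79 in the Zic1 arrays, a difference of 4.69 ± 0.26 or 25.9-fold (adjusted p = 6.46e-16). In the 4 other batch 5 arrays it read 5.82 (H4), 7.05 (Hoxa5), and 5.82 and 5.21 (Hoxc6), and no other CD2 array exceeded 7.05. The Lhx3 arrays thus lay above all others, and the Zic1 arrays lay within them.

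Tac1, the precursor of the neuropeptide substance P, read 9.94 and 10.40 against 7.02 and 6.93, a difference of 3.19 ± 0.45 (9.15-fold, adjusted p = 6.23e-06). Hcrtr2, the orexin receptor 2, read 9.33 and 9.61 against 6.24 and 6.32, a difference of 3.19 ± 0.20 (9.11-fold, adjusted p = 3.76e-14). Cga, the alpha subunit of the pituitary glycoprotein hormones and a gene that Lhx3 activates in the pituitary, read 7.70 and 9.36 against 6.44 and 6.55, a difference of 2.04 ± 0.22 (adjusted p = 5.36e-08). For these 3 genes both Lhx3 arrays lay above every other CD2 array, whose highest values were 8.15 for Tac1, 6.89 for Hcrtr2 and 7.62 for Cga. The margin for Cga in batch 5 was narrow, and its difference was 1.26 in batch 5 and 2.81 in batch 6.

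Egflam (pikachurin), an extracellular matrix protein of photoreceptor synapses, read 9.57 and 9.54 against 7.01 and 7.16, a difference of 2.47 ± 0.16 (5.54-fold, adjusted p = 1.31e-13), with other CD2 arrays at 6.96 to 7.80. Frzb, a secreted Wnt antagonist, read 9.54 and 8.23 against 6.79 and 6.72 (2.13 ± 0.27, adjusted p = 1.46e-06). Crym, a thyroid hormone-binding protein, read 11.11 and 10.18 against 8.43 and 8.37 (2.25 ± 0.29, adjusted p = 1.26e-06). Both Zic1 arrays lay below both Lhx3 arrays for these genes, but other CD2 lines reached 10.59 for Frzb and 11.09 for Crym, so only Egflam of the 3 set Lhx3 apart from all of them. Lypd1, a GPI-anchored modulator of nicotinic receptors, read 10.56 and 10.42 against 8.62 and 8.32 (2.02 ± 0.29, adjusted p = 1.32e-05), within the other lines' 7.77 to 11.63.

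Less firm were the ephrin receptor Epha6 and the heparan sulphatase Sulf1. Epha6 read 10.51 and 10.14 against 8.17 and 8.14 (2.17 ± 0.39, adjusted p = 0.000303), and both Lhx3 arrays topped the 10.06 of the highest other CD2 array. Without a batch 5 array its difference was 2.01 with adjusted p = 0.0907. Sulf1 read 10.98 and 10.62 against 8.36 and 8.79 (2.22 ± 0.60, adjusted p = 0.0284) and lost its call in the batch 5 pair alone (2.62, adjusted p = 0.0792), in the batch 6 pair alone (1.82, 0.804) and without batch terms (0.149). Sulf1 is also a floor plate gene and ranged from 7.79 to 12.28 over the other CD2 arrays, wider than the gap between the lines.

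**Figure D2:**
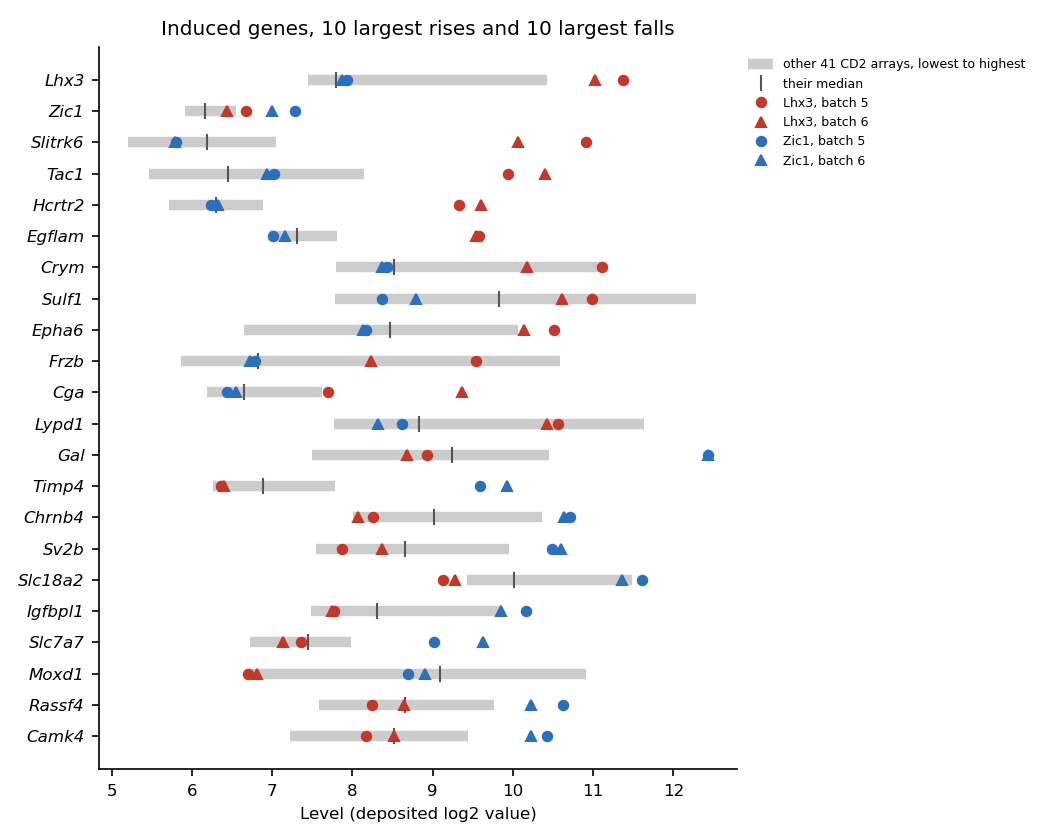
Deposited log2 level of the induced genes, the 10 largest rises and the 10 largest falls in the 2 Lhx3 arrays (red) and the 2 Zic1 arrays (blue), with circles for batch 5 and triangles for batch 6; grey bars span the 41 other CD2 arrays and ticks mark their median. Slitrk6, Tac1, Hcrtr2, Egflam and Cga have red points above the grey bar, whereas Gal, Timp4 and Slc7a7 have blue points above it.

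The largest falls were mostly genes that stood high in the Zic1 arrays. Gal, the precursor of the neuropeptide galanin, read 8.93 and 8.68 in Lhx3 arrays and 12.43 and 12.43 in Zic1 arrays, a difference of -3.63 ± 0.32 (12.4-fold lower, adjusted p = 4.92e-10). No other CD2 array read Gal above 10.45, and the Lhx3 arrays lay inside the range of the others. Timp4, an inhibitor of matrix metalloproteinases, read 6.37 and 6.40 against 9.59 and 9.92 (-3.37 ± 0.20, 10.3-fold lower, adjusted p = 7.75e-15), with other arrays at 6.26 to 7.78. Slc7a7, a cationic amino acid transporter subunit, read 7.36 and 7.13 against 9.02 and 9.63 (-2.08 ± 0.16, adjusted p = 1.29e-11), with other arrays at 6.72 to 7.99. In all 3 it was the Zic1 pair that left the range.

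Sv2b, a synaptic vesicle glycoprotein, read 7.87 and 8.37 against 10.48 and 10.60 (-2.42 ± 0.28, adjusted p = 1.79e-07). Camk4, a calcium/calmodulin-dependent kinase, read 8.18 and 8.52 against 10.42 and 10.23 (-1.98 ± 0.32, adjusted p = 6.16e-05). Rassf4, a Ras association domain protein, read 8.24 and 8.64 against 10.62 and 10.22 (-1.98 ± 0.30, adjusted p = 2.49e-05). For all 3 both Zic1 arrays were above all other CD2 arrays. Without a batch 5 array Camk4 (-1.71, adjusted p = 0.0613) and Rassf4 (-1.59, 0.0654) lost their calls, and Sv2b kept its own. Igfbpl1, an insulin-like growth factor-binding protein relative, read 7.77 and 7.74 against 10.16 and 9.85 (-2.25 ± 0.21, adjusted p = 6.49e-10), and 1 of the 2 Zic1 arrays passed the 9.86 of the highest other array. Moxd1, a monooxygenase related to dopamine beta-hydroxylase, read 6.70 and 6.81 against 8.69 and 8.90 (-2.04 ± 0.53, adjusted p = 0.02). It lay within the other lines' 6.67 to 10.91 in both, and lost its call in the batch 5 pair alone (-1.99, 0.138), in the batch 6 pair alone (-2.09, 0.413) and without batch terms (0.0544).

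Counted over all called genes, both Lhx3 arrays were above all 41 other CD2 arrays for 79 of the 300 higher genes, against 170 of all genes tested (0.853%). Both Zic1 arrays were below all others for 15 of the 300, against 33 of all (0.166%). Of the 285 lower genes, both Zic1 arrays were above all others for 46 (79 of all genes, 0.396%) and both Lhx3 arrays below all others for 21 (77 of all, 0.386%). Neither line left the range of the others for 206 higher and 218 lower genes. These are levels without batch adjustment, chosen in part by the same values as the calls, and carry no test. Within batch 5, where 4 other CD2 arrays were run, all 4 were nearer to Zic1 than to Lhx3 for 150 of the higher genes (50%, against 21.5% of all genes) and nearer to Lhx3 for 16 (5.33%, against 7.56%). For the lower genes the counts were 61 (21.4%, against 21.5% of all genes) and 55 (19.3%, against 7.56%).

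Among LIM homeodomain factors and their cofactors, 5 of 17 measured genes were higher in Lhx3 cells and 1 lower, with a list median of 0.01 against -0.02 over all genes. Besides Lhx3 itself these were Lhx4, its closest paralogue, Isl2, Lmo4 and Lmo1, LIM-only proteins that bind Ldb1, and, as the lower one, Lhx1, a factor of lateral motor column cells and interneurons. Lhx4 read 11.27 and 11.18 against 9.56 and 10.28 (1.31 ± 0.27, adjusted p = 0.00174). The highest other CD2 array read 11.23, between the 2 Lhx3 arrays. Lmo4 read 11.64 and 11.98 against 10.58 and 10.58 (1.23 ± 0.16, adjusted p = 1.60e-06), with other CD2 arrays at 10.38 to 11.27, so that both Lhx3 arrays were the highest of all. Lmo1 was higher by 0.90 (adjusted p = 0.003). Lhx1 read 7.70 and 8.37 against 9.57 and 9.27 (-1.39 ± 0.38, adjusted p = 0.0348). In the batch 6 pair alone Lhx4 (0.91, adjusted p = 0.595) and Lhx1 (-0.90, 0.995) lost their calls, and Lhx1 did so without batch terms as well (0.182).

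The partners of Lhx3 in the motor neuron hexamer did not pass. Isl1 read 12.07 and 12.53 against 12.42 and 12.24, so the lines overlapped and the batches took opposite signs (-0.03 ± 0.15, adjusted p = 0.945). Ldb1 read 12.60 and 12.73 against 12.63 and 12.80 (-0.05 ± 0.09, adjusted p = 0.828).

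Of 14 generic motor neuron genes, 4 were higher (Lhx3, Lhx4, Isl2 and Mnx1) and none lower, with a median of -0.04. Isl2, a LIM factor of postmitotic motor neurons, read 13.04 and 13.11 against 11.90 and 12.30 (0.98 ± 0.23, adjusted p = 0.00808), above the 10.36 to 12.33 of all other CD2 arrays. Mnx1, the homeobox factor that fixes motor neuron identity, read 10.15 and 10.20 against 9.16 and 9.31 (0.93 ± 0.17, adjusted p = 0.000411), inside the 8.45 to 10.34 of the other CD2 arrays, of which Hoxa5 in batch 5 read 10.23. Both genes were higher in both batches, though in the batch 6 pair alone neither passed (Isl2 0.81, adjusted p = 0.586, and Mnx1 0.88, 0.09), nor did Isl2 without batch terms (0.171). In the same arrays Nefl, a neurofilament gene, was at 13.98 and 14.18 against 14.22 and 14.13 and did not pass. The mean of the 14 motor neuron genes was 11.21 and 11.20 against 10.69 and 10.90, with other CD2 arrays at 10.29 to 11.17. This mean includes the induced gene Lhx3, which was higher by 3.44 in batch 5 and 3.16 in batch 6. It was not taken without Lhx3, so it does not show the other motor neuron genes apart from the induction. The sample labels themselves name the cells as ES cells. The mean of 12 pluripotency genes, at 6.85 and 7.00 against 6.98 and 7.26, lay within the 6.64 to 7.30 of the other CD2 arrays. Their 1 call was Esrrb, a nuclear receptor of embryonic stem cells, which was lower by 1.00 ± 0.18 (adjusted p = 0.000308, and 0.0639 without a batch 6 array).

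**Figure D3:**
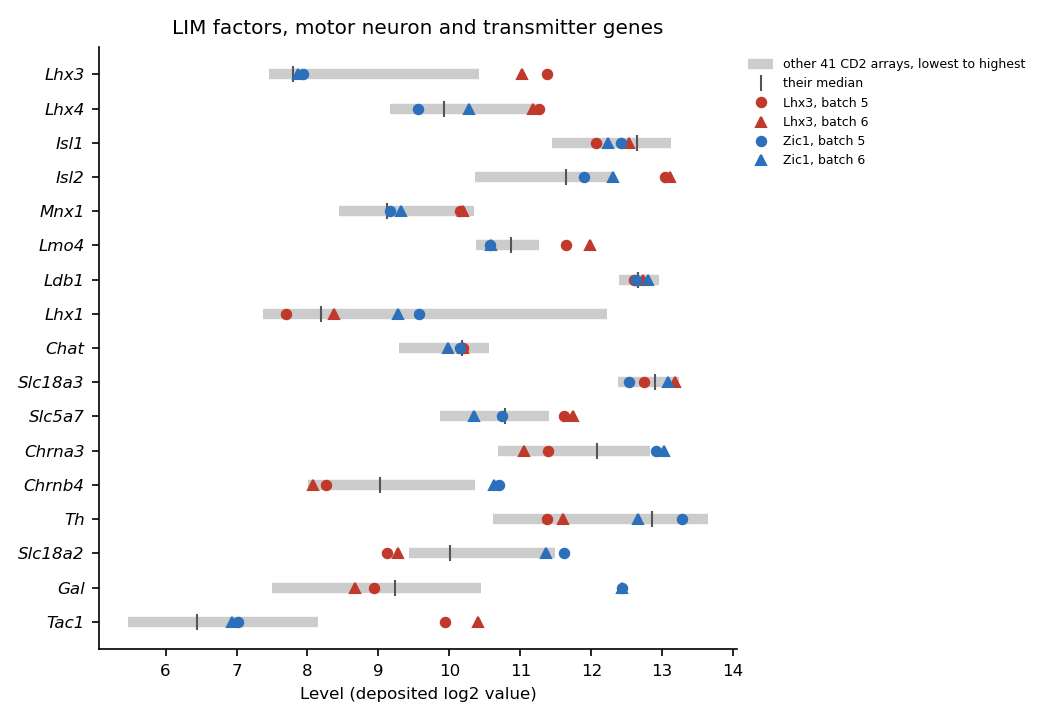
Deposited log2 level of LIM factors, motor neuron genes and transmitter genes in the 2 Lhx3 arrays (red) and the 2 Zic1 arrays (blue), with circles for batch 5, triangles for batch 6, and grey bars for the range of the 41 other CD2 arrays. Isl2, Lmo4 and Slc5a7 have both red points above the bar and Chrna3 and Chrnb4 both blue points above it, while the points of Isl1, Ldb1 and Slc18a3 intermingle.

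Among 12 cholinergic genes 1 was higher and 4 were lower, with a median of 0.08. Slc5a7, the choline transporter that feeds acetylcholine synthesis, was higher in Lhx3 cells at 11.61 and 11.74 against 10.75 and 10.35 (1.13 ± 0.22, adjusted p = 0.00114), above all other CD2 arrays. The synthetic enzyme Chat (0.13 ± 0.14, adjusted p = 0.712) and the vesicular transporter Slc18a3 (0.15 ± 0.14, 0.656) did not pass. The nicotinic receptor subunits Chrnb4 and Chrna3, neighbours in one gene cluster, were lower. Chrnb4 read 8.26 and 8.07 against 10.71 and 10.64 (-2.50 ± 0.39, 5.67-fold lower, adjusted p = 3.43e-05) and Chrna3 read 11.39 and 11.06 against 12.91 and 13.03 (-1.75 ± 0.40, adjusted p = 0.00658), both with the Zic1 arrays above all others. Also lower were Ache, the esterase that degrades acetylcholine, by 0.66 (log2 difference -0.66, adjusted p = 0.029), and Mmd2 (-1.13 ± 0.20, adjusted p = 0.000291). Slc5a7 lost its call in the batch 5 pair alone (0.87, adjusted p = 0.116) and without batch terms (0.0578), Mmd2 in the batch 6 pair alone (-0.72, 0.489), and Chrna3 in each pair alone (-1.52, 0.133, and -1.98, 0.122).

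Genes of other transmitters were called only downward: 2 of 13 were lower and none higher, with a median of -0.29. Slc18a2, the vesicular monoamine transporter, read 9.12 and 9.27 against 11.61 and 11.36 (-2.29 ± 0.21, 4.89-fold lower, adjusted p = 6.06e-10). Here it was the Lhx3 arrays that left the range, below the 9.42 to 11.48 of all other CD2 arrays, and the lower Zic1 array was inside it. Th, tyrosine hydroxylase, read 11.38 and 11.61 against 13.28 and 12.66 (-1.48 ± 0.28, adjusted p = 0.000807), within the others' 10.61 to 13.65 for both lines, and did not pass in the batch 6 pair alone (-1.05, 0.459). Of 17 neuropeptide and trophic factor genes, Tac1 was higher and Gal and Gdnf lower, with a median of -0.16. Gdnf, a survival factor for motor neurons, differed by only -0.46 ± 0.13 (adjusted p = 0.0408), and its call was lost in either pair alone (adjusted p = 0.164 and 0.597), without batch terms (0.224), with quantile normalization applied once more (0.0848) and with arrays centred on their medians (0.0732).

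Column genes were counted next. The list of the median motor column holds Lhx3, the induced gene, and Lhx4. Of its 6 genes 3 were higher and none lower, with a median of 0.64. Besides the 2 LIM genes this was Mecom, a zinc finger factor, at 9.95 and 8.75 against 7.70 and 7.61 (1.70 ± 0.43, adjusted p = 0.0168). Other CD2 arrays read Mecom at 7.11 to 10.56, and in batch 5 Hoxa5 (10.56) and 1 Hoxc6 array (10.06) stood above Lhx3. In the batch 6 pair alone Mecom was at 1.14 (adjusted p = 0.919), as the mean of all its transcript clusters at 0.79 (0.111), and with CD2 arrays only it missed as well (0.0751). The lateral motor column list had 1 of 11 higher and 1 lower, with a median of -0.14: Lhx1, above, and Epha4, the ephrin receptor that guides lateral axons dorsally, at 11.23 and 10.65 against 9.68 and 9.68 (1.26 ± 0.22, adjusted p = 0.000291, and 0.97 with adjusted p = 0.238 in the batch 6 pair alone, 0.0742 without batch terms). Of 6 hypaxial and preganglionic genes 0 passed limma's adjusted test and 3 had unadjusted p under 0.05, against 585 and 3057 of all 19938 genes.

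None of the 12 phrenic genes passed limma's adjusted test, against 585 of all 19938 genes, a share at which a list this short can hold none. At unadjusted p under 0.05 there were 5 of the 12, against 3057 of all genes. The list median was -0.19, and signs in the 2 batches matched for 5 genes. The list mean was 9.19 and 9.19 in Lhx3 arrays and 9.71 and 8.93 in Zic1 arrays, so the Zic1 arrays lay on both sides of the Lhx3 arrays. Pou3f1, a POU factor of phrenic motor neurons, read 8.20 and 8.51 against 8.65 and 8.53 (-0.23 ± 0.19, adjusted p = 0.594). Hoxa5, the cervical Hox factor of the list, read 9.02 and 9.58 against 10.80 and 9.41, with a difference of -1.78 in batch 5 and 0.17 in batch 6 (-0.81 ± 0.36, adjusted p = 0.263). It passed in the batch 5 pair alone (adjusted p = 0.0212) and without the arrays of batch 4 (0.0453). Of Hox paralogues 1 to 5, 0 of 14 passed by limma (4 at unadjusted p under 0.05, median -0.35), and of paralogues 6 to 13, 0 of 23 (3 at unadjusted p under 0.05, median -0.18), although 20 of these 23 had the same sign in both batches.

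Axon guidance genes gave the most calls of any list: 6 of 39 were higher and 1 lower, with a median of 0.13. Sema3a, a secreted repellent made by motor neurons, read 11.03 and 10.19 against 9.01 and 8.54 (1.84 ± 0.24, 3.58-fold, adjusted p = 1.34e-06), above the 8.21 to 9.93 of all other CD2 arrays. Robo1, a receptor for Slit repellents, read 12.20 and 12.03 against 11.53 and 10.88 (0.91 ± 0.16, adjusted p = 0.000283), and did not pass in the batch 5 pair alone (0.67, 0.0899). The other higher members were Epha4, Efnb1 (0.64), Sema3f (0.55) and Sema6a (0.48). Plxna4, a receptor component for class 3 and class 6 semaphorins, was the lower one, at 10.83 and 10.94 against 12.76 and 11.91 (-1.45 ± 0.21, adjusted p = 1.12e-05), and was lost in the batch 6 pair alone (-0.96, 0.116) and without batch terms (0.16).

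Among 26 cadherins and protocadherins, 1 was higher and 3 lower, with a median of -0.09. The type II cadherin Cdh12 read 8.12 and 9.01 against 11.11 and 9.38 (-1.68 ± 0.43, adjusted p = 0.017). Both Lhx3 arrays lay below the 9.45 to 12.38 of the other CD2 arrays, and so did the batch 6 Zic1 array. Its difference was -3.00 in batch 5 and -0.37 in batch 6, where it did not pass alone (adjusted p = 1.0). Cdh4 (R-cadherin) was lower by less but evenly, at 8.97 and 9.09 against 9.59 and 9.76 (-0.65 ± 0.11, adjusted p = 0.000204). Pcdh8 was lower (-0.74 ± 0.17, adjusted p = 0.00765) and Pcdh9 higher (0.93 ± 0.19, 0.00182), and neither passed in the batch 6 pair alone (-0.16, 1.0, and 0.65, 0.59). Without batch terms Cdh12 (0.0946), Pcdh8 (0.602) and Pcdh9 (0.0544) did not pass either.

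Genes around Zic1 gave few calls. Of 19 Zic, Gli and Hedgehog response genes, Gas1 was higher and Zic1 lower, with a median of -0.09. Gas1, a Hedgehog co-receptor, read 10.41 and 10.76 against 9.88 and 9.79 (0.75 ± 0.22, adjusted p = 0.048), and lost its call in either pair alone (0.53, 0.359, and 0.98, 0.202), without batch terms (0.176), with quantile normalization once more (0.108) and with median centring (0.0604). Zic4, which neighbours Zic1 in the genome, read 6.49 and 6.92 against 7.01 and 6.99 (-0.30 ± 0.17, adjusted p = 0.408) and Zic5 differed by -0.20 ± 0.15 (0.559). Zic2 read 9.04 in the batch 5 Lhx3 array and 7.03 to 7.52 in the other 3 arrays (0.71 ± 0.33, adjusted p = 0.289, and 1.91 with adjusted p = 0.00196 in the batch 5 pair alone). Of 19 dorsal neural tube, Wnt and BMP genes 1 was higher, the ligand Bmp6, at 10.25 and 9.68 against 8.40 and 8.54 (1.49 ± 0.29, adjusted p = 0.0011, and 1.13 with adjusted p = 0.413 in the batch 6 pair alone). The median of that list was 0.07.

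Notch targets had 1 of 12 higher, Hey1, a bHLH repressor, at 11.32 and 11.10 against 9.65 and 10.07 (1.34 ± 0.26, adjusted p = 0.000946). Of 14 Notch ligands and proneural factors 1 was lower, Insm1, a zinc finger factor of newborn neurons, at 8.60 and 8.66 against 9.62 and 9.55 (-0.96 ± 0.23, adjusted p = 0.0102). The medians were 0.03 and -0.18. Rbfox3, the nuclear antigen NeuN of maturing neurons, was the single call of 18 synaptic and mature neuron genes, at 9.90 and 10.50 against 10.95 and 11.02 (-0.78 ± 0.17, adjusted p = 0.00329), with a list median of -0.12. In the batch 6 pair alone Hey1 (1.03, adjusted p = 0.383), Insm1 (-0.89, 0.439) and Rbfox3 (-0.52, 0.752) did not pass, Insm1 also missed in the batch 5 pair alone (-1.02, 0.0738), and without batch terms Insm1 (0.0668) and Rbfox3 (0.18) missed. Stress and apoptosis genes had 0 of 11 called by limma (1 at unadjusted p under 0.05), with a median of -0.01.

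**Figure D4:**
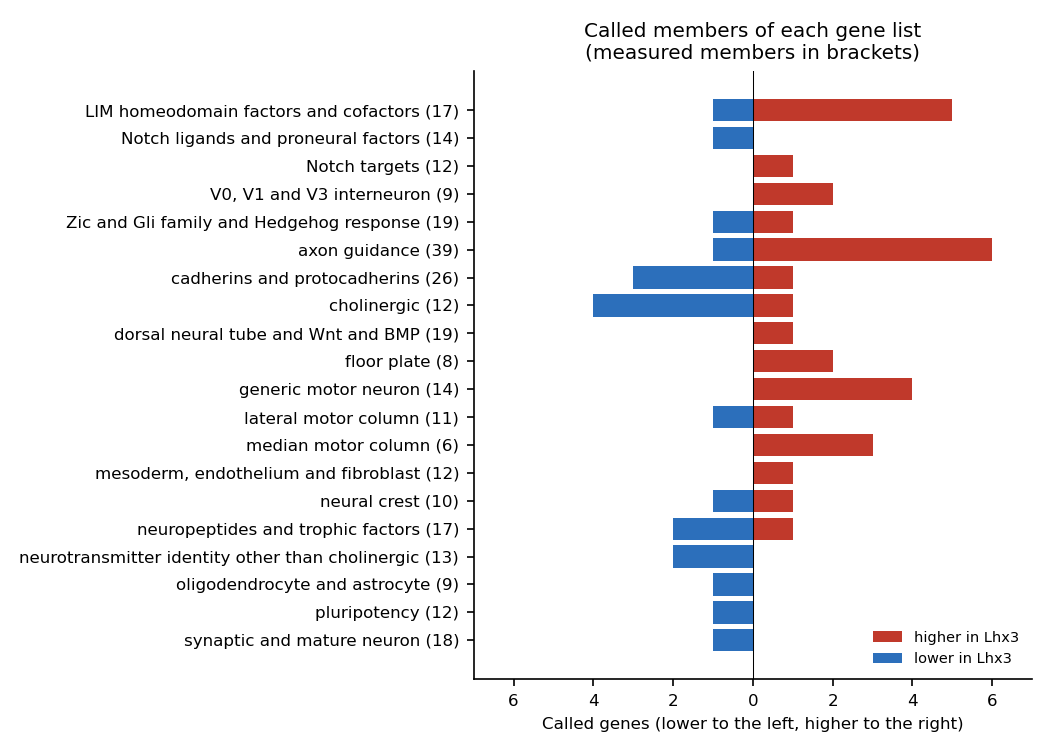
Number of called genes in each gene list that held at least 1, with bars to the right for genes higher and to the left for genes lower in Lhx3 than in Zic1 cells, and the number of measured members in brackets. LIM factors and axon guidance genes have 5 and 6 called higher, cholinergic genes 4 called lower, and over all 19938 genes 1.5% were called higher and 1.43% lower.

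Markers of other cells were read beside these results, since in sorted bulk cultures fewer cells of a type and less RNA per cell cannot be told apart. Cell cycle genes moved oppositely in the 2 batches. The mean level of 16 genes was 11.24 against 10.22 in batch 5, where Lhx3 was above Zic1, and 10.17 against 10.56 in batch 6, where it was below. None of the 16 had the same sign in both batches and none passed limma's adjusted test, with 1 at unadjusted p under 0.05 (range of the other CD2 arrays 8.95 to 11.27). The mean of 8 floor plate genes was 9.15 and 8.97 against 8.11 and 8.44, inside the others' 8.01 to 10.41. Of these 8 genes Sulf1 and Foxa1 were called higher, with a median of 0.51, and 4 had the same sign in both batches. Foxa1, a forkhead factor, read 9.89 and 9.23 against 7.60 and 8.19 (1.67 ± 0.42, adjusted p = 0.0167, and 1.04 with adjusted p = 0.953 in the batch 6 pair alone, 0.0793 without batch terms), while the defining markers Shh (0.16, adjusted p = 0.897) and Foxa2 (0.28, adjusted p = 0.751) did not pass. The part of these markers in the results above was not tested.

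V2 interneuron markers, the fate that Lhx3 serves without Isl1, had 0 of 8 called by limma and 3 at unadjusted p under 0.05. Over all 19938 genes these counts were 585 and 3057. The list means were 7.49 and 7.63 against 7.62 and 7.81, with a median of -0.22. Sox14, a factor of V2 interneurons, read 7.44 and 7.46 against 7.74 and 7.75 (-0.29 ± 0.17, adjusted p = 0.425). Of V0, V1 and V3 markers, 2 of 9 were higher. Sim1, the bHLH-PAS factor of V3 interneurons, read 8.29 and 7.88 against 7.00 and 7.28 (0.94 ± 0.16, adjusted p = 0.000162), above the 6.65 to 7.77 of all other CD2 arrays, although the list means were alike (7.64 and 7.63 against 7.52 and 7.68). Foxp2, a forkhead factor of V1 cells, was higher by 0.86 ± 0.21 (adjusted p = 0.0106). In the batch 6 pair alone Sim1 was at 0.59 (0.413) and Foxp2 at 0.48 (0.988), and Foxp2 missed without batch terms (0.114).

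Other marker lists gave few calls. Mbp, the myelin basic protein gene, was lower at 8.19 and 8.70 against 9.85 and 9.60 (-1.28 ± 0.12, adjusted p = 2.79e-09), with the Zic1 arrays above the 9.38 of the highest other array; it was the only call of 9 oligodendrocyte and astrocyte genes. In the neural crest list Sox9 was higher (1.03 ± 0.28, adjusted p = 0.0348) and Ngfr lower (-0.58 ± 0.15, 0.0216) of 10 genes. Col1a2, a collagen gene, was the single call of 12 mesoderm, endothelium and fibroblast genes, at 10.13 and 8.91 against 8.02 and 8.40 (1.31 ± 0.26, adjusted p = 0.0011). Sox9 lost its call in either pair alone (adjusted p = 0.144 and 0.593), without batch terms (0.084) and with quantile normalization once more (0.0583). Ngfr (-0.20, adjusted p = 1.0) and Col1a2 (0.51, 1.0) lost theirs in the batch 6 pair alone, and Ngfr also without batch terms (0.0849). Neural progenitor (0 of 16), dorsal interneuron and sensory neuron (0 of 12) and epithelial (0 of 11) markers had no call by limma's adjusted test. At unadjusted p under 0.05 there were 4, 3 and 1 of them. Over all 19938 genes 585 were called and 3057 had unadjusted p under 0.05.

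The second comparison shares no array with the first, but both come from the same fit and share its estimate of each gene's spread. Their calls are therefore not independent. In CD14 cells, Pou3f1 with Lhx3 was set against Pou3f1 alone, with no Zic1 involved. Lhx3 was not the only induced gene whose level differed. Pou3f1 read 9.72 and 9.59 with Pou3f1;Lhx3 against 8.76 and 9.07 with Pou3f1 (0.85 ± 0.26, limma adjusted p = 0.256). YFP arrays of CD14 cells read it at 8.45 and 8.48 in batch 6 and at 8.40 and 8.31 in batch 7. The part of Pou3f1 in the differences below was not tested. The groups lay in batches 7 and 6, joined in the fit by the YFP arrays of CD14 cells that each batch held. By limma 70 genes were higher (0.351%) and 30 lower (0.15%), with 939 at unadjusted p under 0.05. Of the 70, 29 were also among the 300 higher over Zic1 (41.4% of the 70 and 9.67% of the 300). Of the 30, 8 were among the 285 lower (26.7% and 2.81%), and 0 genes were called in opposite directions. The median difference in CD14 cells was 0.29 over the 300 genes and -0.09 over the 285, against -0.0007 over all genes. The count of 100 was 522 without batch terms and 427 with CD14 arrays fitted apart. With 1 array left out it fell to 53 (without Pou3f1;Lhx3 replicate 3 or without Pou3f1 replicate 1) or 52 (without Pou3f1 replicate 2).

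Lhx3 itself read 11.65 and 11.64 in the Pou3f1;Lhx3 arrays and 8.25 and 8.07 in the Pou3f1 arrays (3.55 ± 0.39, adjusted p = 6.31e-07). Tac1 read 9.18 and 9.80 against 7.45 and 7.18 (2.96 ± 0.63, adjusted p = 0.0133). YFP arrays read it at 6.82 and 6.77 in batch 7 and at 7.85 and 7.30 in batch 6, a shift that widened the fitted difference. Hcrtr2 read 8.10 and 8.39 against 6.27 and 6.28 (1.95 ± 0.29, adjusted p = 0.000182). Egflam read 9.61 and 9.88 against 7.12 and 7.21 (2.08 ± 0.23, adjusted p = 6.31e-07) and Cga 8.45 and 8.01 against 6.56 and 6.46 (1.61 ± 0.31, adjusted p = 0.00482). Mnx1 read 10.08 and 10.07 against 8.88 and 9.03 (1.19 ± 0.24, adjusted p = 0.00714). These genes were thus high with Lhx3 in both reporter lines, in arrays of batches 5, 6 and 7.

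Slitrk6, the largest rise over Zic1, did not pass there. It read 7.57 and 7.42 with Pou3f1;Lhx3 and 6.11 and 6.20 with Pou3f1. YFP cells read it at 6.80 and 6.89 in batch 7 against 5.85 and 6.21 in batch 6, which left a difference of 0.53 ± 0.36 (adjusted p = 1.0). Whether the 2 differences of Slitrk6 differ from each other was not tested. Frzb was at 1.57 ± 0.39 (adjusted p = 0.0508) and Isl2, at 13.26 and 13.29 against 12.03 and 12.12, at 1.18 ± 0.32 (0.108). Of the 10 largest falls over Zic1, none passed limma's adjusted test in CD14 cells, and 1 had unadjusted p under 0.05. Gal was at -0.35 ± 0.46, Timp4 at -0.27 ± 0.29 and Chrnb4 at -0.18 ± 0.55, and Slc18a2, the gene on which Lhx3 arrays lay below all other CD2 arrays, at -1.02 ± 0.29 (adjusted p = 0.16). Plxna4 was lower in both comparisons, at 10.36 and 10.11 against 12.16 and 12.31 in CD14 cells (-1.33 ± 0.29, adjusted p = 0.0184).

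**Figure D5:**
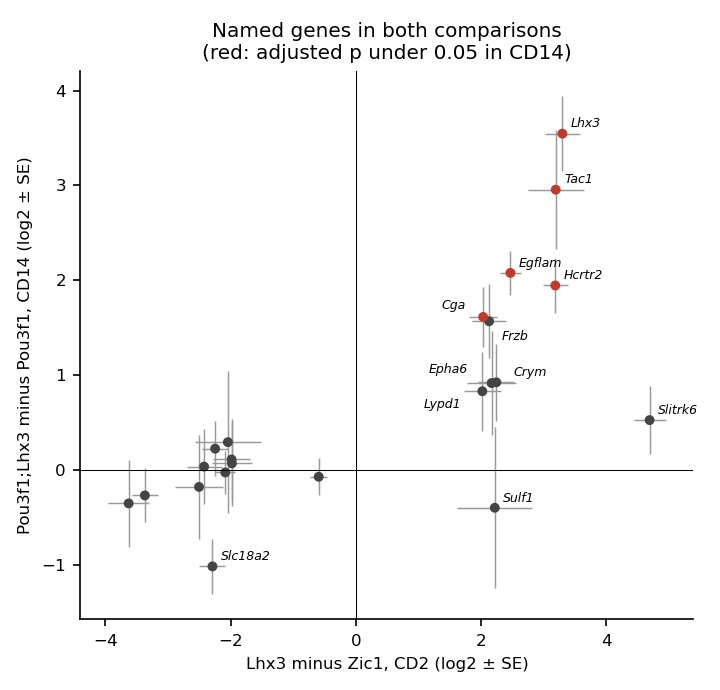
Differences on the log2 scale, with standard errors of the fit, of the induced genes, the 10 largest rises and the 10 largest falls: Lhx3 minus Zic1 in CD2 cells on the horizontal axis and Pou3f1;Lhx3 minus Pou3f1 in CD14 cells on the vertical axis. Red points (Lhx3, Tac1, Hcrtr2, Egflam and Cga) passed in CD14 cells; Slitrk6 lies far right but near 0.53 on the vertical axis, and the 10 falls lie between -1.02 and 0.29 there.

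Some genes that separated Lhx3 from Zic1 were also read in the line titled Lhx3 (DN), written DNLhx3 here. The labels do not spell out DN. Of this line 2 CD2 arrays were run in batch 3 beside 2 YFP arrays. Lhx1 stood at 12.22 and 12.15 with DNLhx3 and at 8.32 and 7.86 with YFP, the far side of the Zic1 arrays from Lhx3. Lhx4 read 11.23 and 10.98 against 9.87 and 10.15 with YFP, Lypd1 10.48 and 10.19 against 8.95 and 8.03, and Epha4 10.82 and 10.72 against 9.57 and 9.74. For these 3 genes the DNLhx3 arrays stood on the same side as the Lhx3 arrays. Other genes called higher in Lhx3 cells went the other way. Slc5a7 read 10.16 and 9.93 with DNLhx3 against 10.75 and 11.40 with YFP. Pcdh9 read 10.33 and 9.99 against 11.30 and 11.62. Mecom was also lower in both DNLhx3 arrays than in both YFP arrays of that batch. The genes given here are examples, and the sides were not counted over all called genes. Slitrk6 (5.83 and 5.66), Hcrtr2 (6.61 and 6.50) and Tac1 (6.59 and 6.14) did not reach the levels of the Lhx3 arrays in either DNLhx3 array. Arrays of different batches are set side by side here without a test.

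The 4 arrays had medians over all transcript clusters of 7.64 and 7.65 (Lhx3) and 7.72 and 7.69 (Zic1). Across genes the 2 Lhx3 arrays correlated at 0.986 and the 2 Zic1 arrays at 0.991, and no gene had identical values in either pair. Of 51 small nucleolar RNA genes 0 were called by limma and 4 had unadjusted p under 0.05 (median difference 0.10). Malat1, a nuclear RNA, read 11.87 against 12.31 in batch 5 and 10.66 against 10.81 in batch 6, so it followed the batch more than the line.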

How the data were processed

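The authors deposited log2 expression values of 35556 transcript clusters on 68 Affymetrix arrays, made with RMA through oligo, per the submitters' processing notes. Tool versions and the build: not given in the sources used here. RMA normalizes quantiles, which can hide a shift of most genes. No scanner intensities were analysed here. The stated precision depends on the number of arrays and on which arrays set the spread. Gene names came from the platform's probe annotation. Clusters with 1 symbol were used, the brightest per gene, which left 19938 genes.

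All 68 arrays entered a limma model (version 3.58.1, R 4.3.3) with a term per group and per batch (37 columns, 31 residual degrees of freedom). The code was run on data simulated from this same model with normal noise. That run checks the code and cannot show which arrays should set the spread. The Lhx3 minus Zic1 contrast of this fit equals the mean of the within-batch differences. The labels give same-numbered replicates of both lines 1 batch, which pairs them. Deviations of the paired arrays correlated at 0.264. P-values are two-sided and adjusted over all 19938 genes.

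The members, the lists and the tests were chosen with earlier results of these data known. The rule for named genes took the induced genes, the 10 largest rises and 10 largest falls among genes called with 1 sign in both batches, up to 4 called members per list by size, and a fixed set (Isl1, Isl2, Mnx1, Chat, Slc18a3, Lhx4, Sox14, Ldb1, Lmo4, Pou3f1, Hoxa5 and Zic2, 4 and 5). Genes named outside it were chosen after their values were seen: Lmo1, Ache, Efnb1, Sema3f, Sema6a, Nefl, Shh, Foxa2 and Malat1. RIKEN, predicted and olfactory genes were counted only (17 of the called genes). Promoters of Lhx3 and Zic1 are not shown, since doxycycline drove their induced copies. Alternatives covered the batch terms, the arrays fitted, normalization, dim genes, cluster choice, moderation and each replicate.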

Additional observations from a re-analysis of the deposited data

How the results depend on the processing

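The count of 585 genes depended on which arrays set the spread. It was 272 with no replicate block (all arrays, batch terms dropped), 322 with CD2 arrays only, 883 without batch 4, and 1021 with batches 5 and 6 only. The 4 arrays alone gave 35 with the replicate block and 41 without it, on 1 and 2 residual degrees of freedom. Leaving out 1 replicate gave 144 to 698. The remaining alternatives gave 527 to 580 (quantile normalization once more 554, median centring 527, no dim genes 568, mean of clusters 580, trend and robust moderation 563). The count of 100 genes in CD14 cells was 522 without batch terms, 427 with CD14 arrays only, 159 without batch 4 and 52 to 74 with 1 replicate left out. The cause of these shifts was not tested. No direction reversed among the 54 named genes called, but most alternatives could not have reversed one. Fits that changed only the other arrays, the batch terms or the moderation kept the same estimate. Leaving out 1 replicate gave the difference of 1 batch, and each called gene had 1 sign in both batches. Of the named genes that were not called, Isl1, Hoxa5 and Zic2 took opposite signs in the 2 pairs, and Zic5 changed sign as the mean of its clusters (0.08). Of the 54, 20 kept their call with any 1 replicate left out (among them Lhx3, Slitrk6, Tac1, Hcrtr2, Egflam, Gal, Timp4, Chrnb4, Slc18a2, Lmo4 and Sema3a) and 12 under every alternative they could enter. Leaving out a batch 5 array ended 31 calls, leaving out a batch 6 array 11, dropping batch terms 18 and fitting CD2 arrays only 14. The filter on dim genes removed Zic1, Slitrk6, Hcrtr2 and Cga.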
